A study of Homo sapiens with 18 samples.

Results

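The data described here are the 6 libraries that compare siELMO1 cells with Mock cells before poly(I:C) (0 h), 3 libraries on each side, out of the 18 libraries and 6 groups of the series. They were chosen by their labels and are described across the 15167 expressed genes of the 62754 genes in the count table. All cells were EA.hy926, an established human endothelial line that was made by fusing umbilical vein endothelial cells with A549 lung epithelial cells. siELMO1 cells received a pool of siRNAs against ELMO1 at 10 nM together with a lipid transfection reagent, and Mock cells received the reagent without siRNA. Both were moved to low serum overnight, and RNA was taken 48 h after transfection from cells that had seen no poly(I:C), a synthetic double-stranded RNA. The knockdown was transient and was made in a single line, and the RNA of whole wells was sequenced, so that fewer cells in a given state and less RNA per cell cannot be told apart. Because Mock cells held no siRNA, the loss of ELMO1 and the presence of an siRNA cannot be told apart in this comparison. For that reason the values of siNT cells at 0 h, which carried a non-targeting siRNA at the same 10 nM, are set beside those of siELMO1. The siNT comparison uses the same 3 Mock libraries, so the values are given side by side and are not independent of each other.

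ELMO1 is an adaptor protein that binds DOCK family exchange factors and helps them load the small GTPase RAC1 with GTP, which drives the actin rearrangements of cell migration and of engulfment of dying cells. Endothelial cells that leave the cell cycle lower a shared program of replication and mitosis genes, which is driven by E2F transcription factors at the entry into S phase and by B-MYB, FOXM1 and the MuvB complex later in the cycle. Resting endothelium rests on a basement membrane of type IV collagen, laminins, nidogen and perlecan, to which it is bound by integrins, while its cells hold on to each other through VE-cadherin.

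The 3 Mock libraries held 61877637, 69850689 and 73850946 estimated counts and the 3 siELMO1 libraries 71127637, 40374756 and 50984532. Levels are given as counts-per-million values (CPM) after scaling of library sizes by TMM, as mean ± SD of 3 libraries, and p-values are those of edgeR's quasi-likelihood test with Benjamini-Hochberg adjustment over all 15167 genes. They set each difference against the spread between replicate libraries, which was estimated from all 18 libraries of the series and not from these 6 alone. ELMO1 (chromosome 7, 36852906 to 37449223 on the minus strand of GRCh38) stood at 3.04, 2.99 and 3.03 CPM in the Mock libraries and at 0.299, 0.301 and 0.419 CPM in the siELMO1 libraries, with no overlap. Its log2 fold change was -3.15 ± 0.28 (SE, adjusted p = 4.45e-08, edgeR), and the level in siNT was 2.95 ± 0.339 CPM. Among 19 annotated ELMO1 transcripts, 7 had a count in the 6 libraries. The most abundant, a protein-coding transcript of 5092 bases, held 192, 144 and 229 estimated counts in Mock and 22, 7 and 20 in siELMO1.

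The identity of the line was read from marker lists. Of 16 endothelial markers 14 reached 1 CPM in a library, and their summed level was 2570 to 2702 CPM in Mock and 3395 to 3626 CPM in siELMO1. Of 9 epithelial markers 4 reached 1 CPM, 4 were at 0 in all 6 libraries, among them CDH1, NKX2-1 and SFTPC, and the sum, which keratins made up, was 1516 to 1538 CPM in Mock and 2100 to 2223 CPM in siELMO1. Smooth muscle and fibroblast markers summed to 8.93 to 12.3 CPM in Mock and 18.7 to 20.6 CPM in siELMO1, with 2 of 8 over 1 CPM. Leukocyte markers summed to 54.0 to 77.3 and 67.1 to 100.3 CPM, with 4 of 6 at 0. The part of these sums in the results below was not tested.

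The siELMO1 library of replicate 1 stood apart from the other two. Over 9534 well-expressed genes the SD of its log2 ratio to the mean of the other two was 0.249, against 0.177 and 0.173 for replicates 2 and 3 and 0.108 to 0.133 for the Mock libraries. Its share of counts from the mitochondrial genome was 1.86%, against 4.02% and 3.95% in the other siELMO1 libraries and 1.31% to 1.44% in Mock. Results that move without it are named beside their values.

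By adjusted p alone 7618 genes, 50.2% of those tested, differed between siELMO1 and Mock, 4225 of them higher (27.9%) and 3393 lower (22.4%). List counts below are to be read beside these shares of all genes. Scaled by library totals and not by TMM, the split turned to 3274 higher and 4189 lower, so that the share of higher genes among those called was 43.9% instead of 55.5%. The median log2 fold change of all genes was 0.04. With a fold change over 2 required as well, 499 genes were higher (3.29%) and 682 lower (4.50%). Only 66 and 159 genes differed by more than 4 fold. For comparison, 27.6% of genes were higher and 24.0% lower in siNT than in Mock by adjusted p, and 333 and 655 passed with a fold over 2.

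The genes that fell had a higher median level than those that rose. The 682 lower genes had a median level of 15.0 CPM and took 4.42% ± 0.166 of all counts in Mock and 1.55% ± 0.00772 in siELMO1. The 499 higher genes had a median level of 4.07 CPM and took 2.28% ± 0.0418 of counts in Mock and 5.93% ± 1.28 in siELMO1. In 1134 of the 1181 genes past both thresholds (96.0%), the Mock and siELMO1 libraries did not overlap. Among all 15167 genes tested, called or not, all siELMO1 libraries lay above all Mock libraries in 4691 and below them in 3824. The 1181 genes were selected by their difference against replicate spread, so their share is not a separate test. Among the higher genes 8 were at 0 in all Mock libraries, and among the lower genes 10 were at 0 in all siELMO1 libraries, for which no fold is given. Protein-coding genes made up 412 of the higher and 567 of the lower genes, and long non-coding RNAs 54 and 83.

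**Figure D1:**
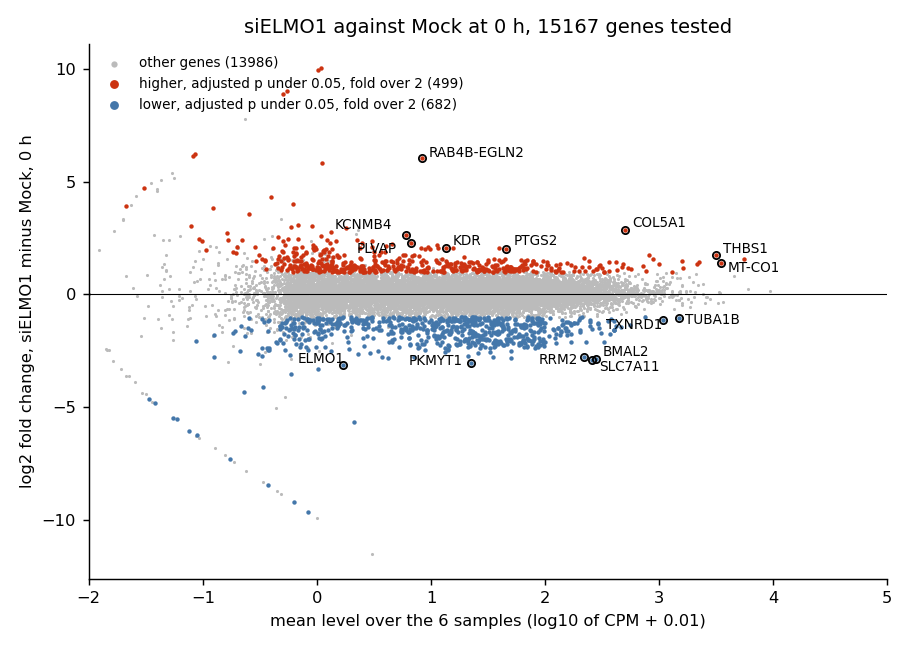
Log2 fold change of siELMO1 against Mock at 0 h (vertical axis) against the mean level of each gene over the 6 libraries (horizontal axis, log10 of CPM + 0.01) for the 15167 genes tested. Red points are the 499 genes higher and blue points the 682 genes lower with adjusted p under 0.05 and a fold over 2, grey points are the other genes, and the straight run of points at the lower left is made of genes at 0 in siELMO1, whose fitted fold is set by the prior count.

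Among the 12 genes with the largest rise at a mean of 5 CPM or more were genes of the matrix, of the endothelial surface and of signalling. The naming rule required all their siELMO1 libraries to lie above all Mock libraries, so lack of overlap in these genes is no separate result. COL5A1, which encodes a chain of the fibril-forming type V collagen, stood at 122, 120.1 and 120.2 CPM in Mock and 903, 910.3 and 857 CPM in siELMO1. Mock and siELMO1 were far apart, and siNT was lower than Mock at 70.5 ± 6.07 CPM. FRAS1, a protein of the basement membrane zone, went from 4.04 ± 0.719 to 18.7 ± 3.55 CPM (log2 fold change 2.20 ± 0.21, adjusted p = 8.18e-08, edgeR), and C1QTNF6, a secreted protein with a collagen-like stretch, from 15.4 ± 0.613 to 63.9 ± 4.76 CPM (2.06 ± 0.09, adjusted p = 2.11e-12). CEACAM1, an adhesion molecule of the immunoglobulin family, went from 5.99 ± 0.350 to 25.1 ± 4.88 CPM. For all 3 of these genes siNT lay between Mock and siELMO1, at 7.21 CPM for FRAS1, 36.7 CPM for C1QTNF6 and 9.58 CPM for CEACAM1.

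The endothelial surface was represented by KDR and PLVAP. KDR, the main receptor for VEGF in endothelium, was at 5.05, 5.00 and 5.54 CPM in Mock and at 19.3, 22.1 and 24.0 CPM in siELMO1 (2.07 ± 0.29, adjusted p = 1.29e-05, edgeR). All siELMO1 libraries were above all Mock libraries, and siNT was at 7.04 ± 1.18 CPM. PLVAP, the protein of the diaphragms of fenestrated endothelium, rose from 2.27 ± 0.401 to 11.1 ± 1.83 CPM. In siNT it was at 14.7 ± 1.13 CPM, so the contrast of siELMO1 with siNT was -0.40 (adjusted p = 0.119, edgeR) and did not pass. PPP1R16B, a regulatory subunit of protein phosphatase 1 that is found in endothelium, rose from 4.46 ± 1.39 to 18.8 ± 0.850 CPM and stood at 2.06 ± 0.334 CPM in siNT.

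Other genes of this group encode a channel subunit, an apoptosis factor and an enzyme of prostaglandin synthesis. KCNMB4, an accessory subunit of the BK potassium channel, was at 1.64, 1.12 and 2.16 CPM in Mock and 10.4, 11.1 and 9.59 CPM in siELMO1, with no overlap. BMF, a BH3-only member of the BCL2 family, rose from 3.09 ± 0.562 to 13.1 ± 0.433 CPM (2.08 ± 0.26, adjusted p = 2.96e-06, edgeR), with siNT at 4.55 ± 0.577 CPM. PTGS2, the inducible cyclooxygenase, was at 17.1, 18.2 and 18.7 CPM in Mock and 77.6, 77.9 and 65.7 CPM in siELMO1, and siNT lay below both at 5.99 ± 1.07 CPM. The highest fold belonged to RAB4B-EGLN2, a readthrough transcript gene at 0.244 ± 0.0875 CPM in Mock and 16.5 ± 4.29 CPM in siELMO1. It shares its exons with RAB4B and EGLN2, so its count is uncertain. MT-TP, a mitochondrial tRNA gene, is described with the mitochondrial genome.

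Most of the 11 genes with the largest fall given here serve the cell cycle or DNA synthesis. The naming rule required that their siELMO1 and Mock libraries not overlap. PKMYT1, the kinase that holds CDK1 inactive before mitosis, was at 37.5, 41.1 and 42.1 CPM in Mock and 6.45, 4.45 and 3.42 CPM in siELMO1. SLC7A11, the cystine importer, was at 453, 482 and 439 CPM and 61.9, 57.2 and 61.2 CPM (-2.93 ± 0.11, adjusted p = 4.09e-13, edgeR). BMAL2, a paralogue of the clock transcription factor BMAL1, was at 468, 561 and 445 CPM and 79.1, 54.8 and 67.8 CPM (-2.87 ± 0.12, adjusted p = 1.81e-12, edgeR). In siNT these stood at 32.1 ± 2.63, 483 ± 22.1 and 424 ± 35.5 CPM, none of them called against Mock. BMAL1 itself was at 8.08 CPM in Mock and 9.78 CPM in siELMO1 (0.28 ± 0.12, adjusted p = 0.0596) and did not pass.

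The remaining genes with the largest falls were DEPDC1, E2F2, RRM2, ASF1B, TCF19, FAM111B, MCM10 and CDKN3. RRM2, the regulated subunit of ribonucleotide reductase, fell from 381 ± 5.92 to 55.5 ± 4.10 CPM. It was also lower in siNT than in Mock, by a smaller amount (log2 fold change -0.83). TCF19 had the same order of groups, from 36.9 ± 1.64 CPM in Mock over 17.7 ± 0.244 CPM in siNT down to 5.51 ± 1.54 CPM in siELMO1. E2F2, an activator of S phase genes, was at 12.5 ± 0.276 CPM in Mock and 1.79 ± 0.324 CPM in siELMO1, and siNT was at 13.0 ± 0.188 CPM. PKMYT1, BMAL2, SLC7A11, DEPDC1, RRM2, ASF1B and TCF19 each overlap an annotated gene on the other strand. The same holds for other named genes, among them COL5A1, KDR, PTGS2 and THBS1. The sources do not state that strand was used in counting.

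**Figure D2:**
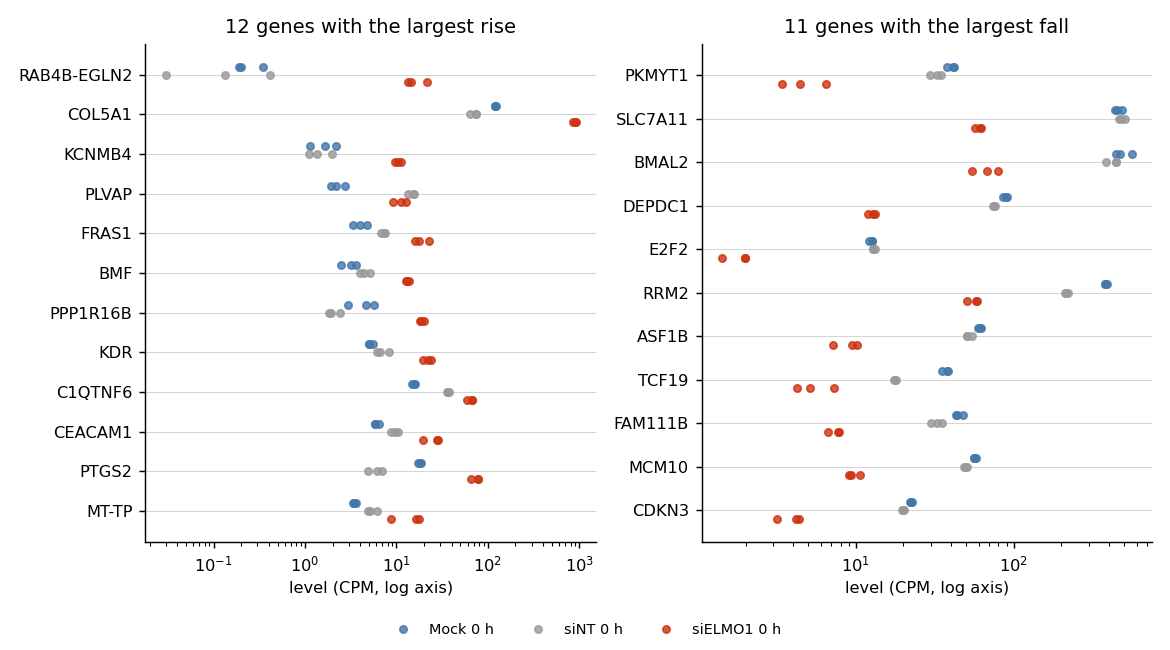
Level (CPM, log axis) in each of the 3 Mock (blue), 3 siNT (grey) and 3 siELMO1 (red) libraries at 0 h for the 12 genes with the largest rise (left) and 11 with the largest fall (right). Red points lie to the right of all blue points on the left panel and to the left of them on the right panel. The naming rule required this. Grey points of RRM2, TCF19, FRAS1 and C1QTNF6 lie between the blue and red ones and those of PLVAP lie with the red ones.

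By amount of RNA, the largest rises outside the mitochondrial genome and the largest falls were in a matrix protein, in tubulins and in a redox enzyme. THBS1, the secreted matrix protein thrombospondin-1, stood at 1435, 1388 and 1499 CPM in Mock and 4593, 5007 and 4995 CPM in siELMO1 (1.76 ± 0.12, adjusted p = 1.21e-09, edgeR). TUBA1B and TUBA1C, which encode alpha-tubulins, fell from 1993 ± 16.4 to 969 ± 64.2 CPM and from 1004, 1001 and 995 CPM to 456, 507 and 517 CPM, and TUBB4B, a beta-tubulin, from 682 ± 12.0 to 251 ± 20.4 CPM. TXNRD1, the cytosolic thioredoxin reductase, was at 1492, 1508 and 1446 CPM in Mock and at 664, 671 and 676 CPM in siELMO1, and MORF4L2, a chromatin protein, fell from 791 ± 13.8 to 309 ± 18.1 CPM. TXNRD1, MORF4L2 and TUBB4B were higher in siNT than in Mock (log2 fold change 0.45, 0.26 and 0.34), the other direction from siELMO1. Tubulin genes have close paralogues and pseudogenes, between which reads can be split.

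Genes of DNA replication fell almost without exception. Of the 47 replication licensing and fork genes tested, 46 were lower and 0 higher, with a median log2 fold change of -1.51, and 36 of them passed a fold of 2. Their summed level was 3658, 3710 and 3641 CPM in the Mock libraries and 1499, 1406 and 1489 CPM in the siELMO1 libraries. The siELMO1 sums were all under the Mock sums, and the siNT sums of 3208, 3169 and 3176 CPM lay between. MCM10, which activates the replicative helicase, was at 56.1, 57.6 and 55.9 CPM in Mock and 9.31, 9.07 and 10.6 CPM in siELMO1 (-2.55 ± 0.08, adjusted p = 1.04e-13, edgeR). GINS2, a helicase subunit, changed by -2.30, POLA2 of the DNA polymerase alpha complex by -2.26, and the licensing factors ORC1 and CDT1 by -2.20 and -2.17 on the log2 scale. In siNT 28 of these genes were lower and 4 higher than in Mock, with a median of -0.21.

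Transcripts for the synthesis of DNA building blocks were lower too. Of 22 nucleotide synthesis genes 18 were lower and 1 was higher (median -0.51). Beside RRM2, thymidine kinase TK1 fell from 137 ± 1.65 to 26.8 ± 3.70 CPM, the large ribonucleotide reductase subunit RRM1 from 211 ± 5.16 to 65.9 ± 2.95 CPM and thymidylate synthase TYMS from 209 ± 5.53 to 69.0 ± 5.19 CPM. In siNT TK1, RRM1 and TYMS stood at 105, 147 and 134 CPM. ASF1B, a histone chaperone of the replication fork, stood at 62.4, 59.7 and 61.4 CPM in Mock and 10.1, 7.13 and 9.49 CPM in siELMO1.

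The transcription factors of the cycle differed among themselves. Of 20 E2F, RB and DREAM genes 13 were lower and 2 higher (median -0.53). E2F8, a repressor of the family, changed by -2.44, MYBL2, which encodes B-MYB, by -1.84 and FOXM1 by -1.79, from 209.9 ± 2.55 to 60.8 ± 4.73 CPM. E2F7, the other atypical repressor, went the other way from 163 ± 6.36 to 217 ± 7.07 CPM (0.41 ± 0.07, adjusted p = 7.36e-05, edgeR) and was at 217 ± 6.33 CPM in siNT. E2F3 was at 30.4 and 30.9 CPM (adjusted p = 0.758) and did not pass. Of 18 cyclins and cyclin-dependent kinases 15 were lower and 2 higher, and SKP2, the F-box protein that marks the CDK inhibitor p27 for destruction, fell from 42.2 ± 1.55 to 9.87 ± 0.421 CPM.

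CDK inhibitors did not rise as a group. CDKN2C, which encodes p18, fell from 14.2, 14.8 and 15.9 CPM in Mock to 2.98, 2.69 and 2.48 CPM in siELMO1 (-2.46 ± 0.11, adjusted p = 3.03e-12, edgeR), and CDKN2D, which encodes p19, changed by -0.81. CDKN1A, which encodes p21, was at 177, 175 and 172 CPM in Mock and 203, 196 and 184 CPM in siELMO1 (0.16 ± 0.04, adjusted p = 0.00457, edgeR), a small rise whose call was lost without Mock replicate 2 or 3 and with library totals, on only the 6 libraries or with no filter, at adjusted p from 0.0524 to 0.192 (edgeR). It was at 334 ± 8.96 CPM in siNT. CDKN1B, which encodes p27, was at 47.6 CPM in Mock and 46.3 CPM in siELMO1 (adjusted p = 0.554) and at 94.4 ± 3.10 CPM in siNT, so the levels of both were highest in siNT. Of 25 listed p53 targets 10 were higher and 7 lower, with a median of 0.01. PLK2 rose from 219.6 ± 5.93 to 442 ± 22.5 CPM and ZMAT3 from 125 ± 3.39 to 228 ± 3.03 CPM, while PMAIP1, which encodes NOXA, fell from 53.1, 48.1 and 49.0 CPM to 27.8, 23.9 and 24.8 CPM.

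Genes of mitosis fell as a block. All 24 of the 24 mitotic kinesin and cytokinesis genes tested were lower, with a median of -2.01 and a range from -2.26 to -1.35. KIF15 stood at 45.1, 49.9 and 44.6 CPM in Mock and 9.13, 11.0 and 9.07 CPM in siELMO1, and KIF2C, KIFC1, PRC1 and ASPM changed by -2.25, -2.22, -2.22 and -2.21 on the log2 scale. Spindle checkpoint and mitotic kinase genes were lower in 23 of 24 (median -2.15), among them PBK (-2.44), NEK2 (-2.39), separase ESPL1 (-2.32) and survivin BIRC5 (-2.31). Centromere and kinetochore genes were lower in 30 of 31 (median -1.70). OIP5, CENPM, the centromeric histone CENPA, NDC80 and SPC24 led them, with log2 fold changes of -2.50, -2.37, -2.36, -2.29 and -2.21. In siNT, BIRC5 and CENPA were also lower than in Mock (-1.20 and -0.95), while PBK, SPC24 and CENPM were at 0.14, 0.05 and -0.01.

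Genes that pack, hold together and repair chromosomes were lower in most cases. Of 19 condensin and cohesin genes 14 were lower and 1 was higher (median -1.23). The condensin subunits NCAPH and NCAPG2 changed by -2.39 and -2.08, and NCAPG fell from 125 ± 1.53 to 27.7 ± 1.21 CPM. The cohesion factors CDCA5 and ESCO2 changed by -2.05 and -2.04. Of 28 homologous recombination and Fanconi genes 26 were lower and 0 higher (median -1.57), with FANCD2 at 59.0 ± 1.15 CPM in Mock and 11.8 ± 1.62 CPM in siELMO1, and EXO1, RAD51AP1, XRCC2 and POLQ at -2.25, -2.23, -2.03 and -2.03.

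The promoters of these genes were read from RefSeq windows of 250 bases before to 50 bases after the annotated start (GRCh38.p14). A window was matched by symbol for 7653 of the tested genes, those with exactly 1 window. Letters of 3 motifs were searched on both strands. CHR elements, the MuvB sites of late cell cycle genes, were taken as TTTGAA or TTTAAA, and E2F sites as TTTGGCGC, TTTCCCGC, TTTCGCGC or TTTGCCGC, none of which contains CHR letters. CHR letters were found in 15.5% of all windows, in 123 of the 351 windows of lower genes and in 40 of the 247 windows of higher genes, and in 20 of 20 windows of mitotic kinesin and cytokinesis genes. E2F letters were found in 5.54% of all windows, 17.1% of those of lower and 2.02% of those of higher genes, and in 16 of 31 windows of replication genes. The CCAAT box, searched as CCAAT, was in 38.3% of all windows, 52.1% of those of lower genes and 34.0% of those of higher genes. A match is a description of the letters and not a measured site.

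The 200 bases before the start are shown for 5 of the lower genes, to let the letters be seen in place, 5′ to 3′ along the gene with CHR letters in capitals in the first 3 and E2F letters in capitals in the last 2. PLK1, a mitotic kinase (139 CPM in Mock, 28.5 CPM in siELMO1), has CHR letters 148, 88 and 29 bases before its start on the plus strand of chr16:23678689-23678888. KIF20A, a kinesin of cytokinesis (158 and 34.4 CPM), has them 41 bases before its start (plus strand, chr5:138178912-138179111). DEPDC1, a mitotic gene (88.6 and 12.7 CPM), has them 27 bases before its start as their reverse complement (minus strand, chr1:68497083-68497282). POLA2 (40.2 and 8.44 CPM) has E2F letters 53 bases before its start (plus strand, chr11:65261762-65261961), and E2F2 itself has them 42 bases before its start (minus strand, chr1:23531234-23531433).
PLK1: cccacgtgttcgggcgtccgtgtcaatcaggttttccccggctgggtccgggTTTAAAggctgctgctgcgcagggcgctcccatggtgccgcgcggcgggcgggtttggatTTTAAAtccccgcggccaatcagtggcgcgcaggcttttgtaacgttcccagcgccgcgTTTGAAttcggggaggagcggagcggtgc
KIF20A: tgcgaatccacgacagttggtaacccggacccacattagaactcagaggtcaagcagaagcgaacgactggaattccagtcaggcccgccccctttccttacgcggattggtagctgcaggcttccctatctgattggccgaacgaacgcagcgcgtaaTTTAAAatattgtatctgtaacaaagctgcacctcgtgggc
DEPDC1: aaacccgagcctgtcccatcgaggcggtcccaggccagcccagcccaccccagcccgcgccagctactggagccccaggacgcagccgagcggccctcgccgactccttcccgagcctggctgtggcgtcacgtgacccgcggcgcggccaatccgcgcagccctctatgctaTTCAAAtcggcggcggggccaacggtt
POLA2: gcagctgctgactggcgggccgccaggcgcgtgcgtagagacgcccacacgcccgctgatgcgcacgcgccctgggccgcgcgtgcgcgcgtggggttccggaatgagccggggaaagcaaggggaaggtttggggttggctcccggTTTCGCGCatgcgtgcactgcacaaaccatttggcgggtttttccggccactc
E2F2: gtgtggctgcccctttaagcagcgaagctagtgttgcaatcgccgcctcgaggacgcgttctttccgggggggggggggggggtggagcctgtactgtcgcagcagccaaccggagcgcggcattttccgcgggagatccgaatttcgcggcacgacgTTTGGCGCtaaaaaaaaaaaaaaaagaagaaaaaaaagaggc

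**Figure D3:**
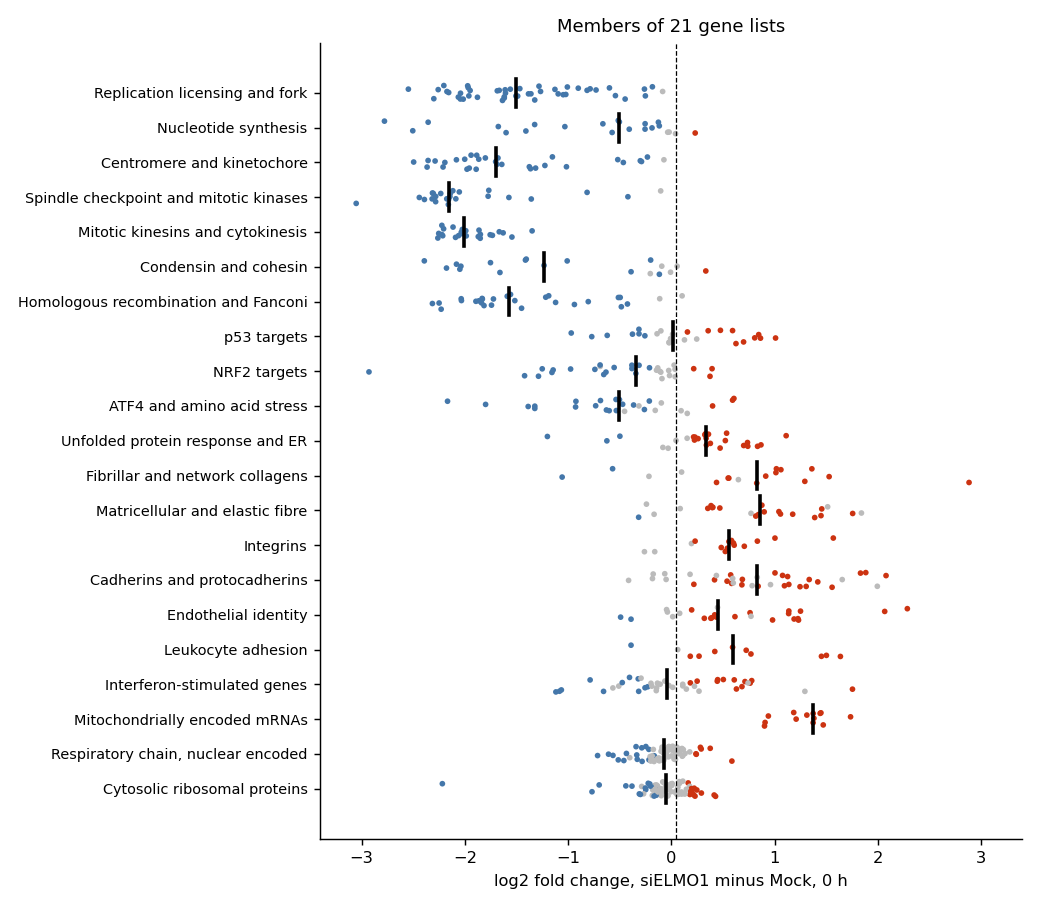
Log2 fold change of siELMO1 against Mock at 0 h (horizontal axis) for each tested member of 21 gene lists (rows). Red points are members higher and blue points members lower by adjusted p, grey points are members that did not pass, black bars are list medians and the dashed line is the median of all genes at 0.04. Replication and mitosis lists lie to the left, matrix, adhesion and endothelial lists to the right, and ribosomal proteins around the line.

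Redox and amino acid genes fell in siELMO1. Of 31 NRF2 targets, genes of the antioxidant response, 17 were lower and 3 higher, with a median of -0.34, whereas in siNT 21 were higher and 1 was lower than in Mock (median 0.37). NQO1, the quinone reductase, was at 602, 609 and 613 CPM in Mock and 249, 212 and 219.7 CPM in siELMO1 (-1.42 ± 0.07, adjusted p = 5.34e-12, edgeR), with no overlap, and at 705 ± 25.8 CPM in siNT. GCLM, the modifier subunit of glutathione synthesis, fell from 140.1 ± 2.93 to 57.4 ± 3.78 CPM and thioredoxin TXN from 232 ± 4.05 to 97.7 ± 6.67 CPM. OSGIN1 was at 32.8 CPM in Mock, 14.7 CPM in siELMO1 and 59.2 CPM in siNT. NFE2L2, which encodes NRF2, did not pass, with 97.4 CPM in Mock and 99.3 CPM in siELMO1 (adjusted p = 0.715). In siNT TXN was higher than in Mock (0.59) and GCLM was not called (0.09). The letters of the antioxidant response element, searched as TGACNNNGC on both strands, were in 5 of 16 windows of the list and in 15.6% of all windows, 14.8% of those of lower genes and 14.6% of those of higher genes.

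Serine and one-carbon enzymes led the falls among the 27 ATF4 and amino acid stress genes, of which 18 were lower and 3 higher (median -0.50). SHMT2, the mitochondrial serine hydroxymethyltransferase, stood at 207, 204 and 198 CPM in Mock and 46.5, 44.5 and 44.5 CPM in siELMO1 (-2.17 ± 0.07, adjusted p = 8.25e-14, edgeR). Its level in siNT was 201 ± 4.60 CPM, near that of Mock. The first enzymes of serine synthesis, PHGDH and PSAT1, fell from 52.0 ± 1.36 to 15.0 ± 1.24 CPM and from 77.3 ± 0.167 to 30.8 ± 4.60 CPM, the cytosolic SHMT1 changed by -1.39 and asparagine synthetase ASNS by -1.32. ATF4 itself was at 185 ± 1.86 CPM in Mock, 128 ± 2.66 CPM in siELMO1 and 142 ± 5.77 CPM in siNT, and it was called lower in both.

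Collagens and their processing enzymes rose. Of 17 collagen genes 12 were higher and 2 lower (median 0.83), and their summed level went from 1139, 1135 and 1149 CPM in the Mock libraries to 2869, 2858 and 2776 CPM in the siELMO1 libraries. In siNT the sums were 828, 758 and 831 CPM, under those of Mock, with 9 genes lower and 4 higher. After COL5A1 the largest changes were those of the basement membrane chains COL4A1 and COL4A5, of COL5A2 and of the transmembrane COL13A1. COL4A5 went from 61.6 ± 2.93 to 151 ± 7.07 CPM and was at 85.3 ± 3.88 CPM in siNT. SERPINH1, the collagen chaperone HSP47, rose from 145 ± 3.30 to 341 ± 10.6 CPM, the proline hydroxylase P3H2 from 44.2 ± 0.385 to 87.5 ± 4.99 CPM and lysyl oxidase LOX from 109.5 ± 3.93 to 216 ± 4.86 CPM, within 16 higher and 2 lower of 20 processing genes (median 0.57). SERPINH1, P3H2 and LOX were also higher in siNT than in Mock (0.64, 0.49 and 0.76 on the log2 scale).

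Other parts of the matrix differed among themselves. Proteoglycans were higher in 2 of 9 and lower in 2 (median 0.11), with 1 higher without Mock replicate 2, without siELMO1 replicate 2 or with no count filter. Among all genes 27.9% were higher and 22.4% lower. Of 13 basement membrane glycoproteins 8 were higher and 2 lower (median 0.62), with nidogen NID1 at 19.4, 19.9 and 21.3 CPM in Mock and 52.0, 62.8 and 61.1 CPM in siELMO1. Perlecan HSPG2 went from 329.6 ± 13.1 to 738 ± 32.5 CPM, and the laminin chains LAMC1, LAMA4 and LAMB1, which together form an endothelial laminin, from 772 ± 8.30, 802 ± 14.1 and 961 ± 2.97 CPM to 1513 ± 101, 1376 ± 52.0 and 1643 ± 53.4 CPM. LAMA4 was lower in siNT than in Mock, at 411 ± 28.0 CPM. Among 24 matricellular and elastic fibre genes 17 were higher and 1 was lower (median 0.86). SPARC stood at 196 ± 13.2 CPM in Mock, 537 ± 28.0 CPM in siELMO1 and 468 ± 10.8 CPM in siNT, and fibrillin FBN1 at 86.9 ± 6.76, 227 ± 8.27 and 134 ± 11.5 CPM. MFAP2, also called higher, was at 0 in all Mock libraries and at a mean of 0.152 CPM in siELMO1, so no fold is given.

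Matrix proteases and their inhibitors rose in 12 of 23 genes and fell in 2, 4 with library totals and 1 without Mock replicate 3 or siELMO1 replicate 2 (median 0.55). Gelatinase MMP2 was at 428, 419 and 475 CPM in Mock and at 1233, 1336 and 1424 CPM in siELMO1 (1.59 ± 0.15, adjusted p = 8.27e-08, edgeR). MMP14, the membrane protease that activates MMP2, rose from 179 ± 10.1 to 395 ± 13.4 CPM, and siNT stood at 154 ± 8.10 CPM. ADAM12 changed by 2.76 from a low level of 0.340 CPM, and ADAM19 and ADAMTS7 by 1.45 and 1.43.

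Adhesion receptors were higher or did not pass. Integrins were higher in 12 of 15 and lower in 0 (median 0.56). ITGA5, which with ITGB1 forms the fibronectin receptor, was at 859, 853 and 866 CPM in Mock and 1772, 1669 and 1727 CPM in siELMO1, and ITGB1 at 849.5 ± 17.8 and 1295 ± 107 CPM. The vitronectin receptor chains ITGAV and ITGB3 changed by 0.83 and 0.71. In siNT, ITGB3 was lower than in Mock (-0.87) and ITGA5 was not called (0.17). Of 35 cadherins and protocadherins 21 were higher and 0 lower (median 0.83), against 5 higher and 12 lower in siNT. CDH5, which encodes VE-cadherin, rose from 353 ± 13.7 to 777 ± 21.9 CPM and was at 438 ± 17.0 CPM in siNT. The largest folds were in clustered protocadherins of low level such as PCDHB8 (0.235 to 1.00 CPM) and PCDHGB2 (1.67 to 6.20 CPM), whose near copies can share reads.

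Endothelial genes as a list were higher. Of 25 endothelial identity genes 17 were higher and 2 lower (median 0.45), with summed levels of 3321, 3256 and 3454 CPM in Mock and 4206, 4285 and 4498 CPM in siELMO1. In siNT the sums were 3349, 3261 and 3358 CPM, within the range of Mock. FLT1, the decoy receptor for VEGF, rose from 16.7 ± 0.864 to 39.2 ± 3.99 CPM, the adrenomedullin receptor CALCRL from 11.9 ± 1.86 to 28.4 ± 2.01 CPM and von Willebrand factor VWF from 5.59 ± 0.400 to 13.1 ± 0.199 CPM. In siNT these stood at 14.1, 7.41 and 3.78 CPM. The nitric oxide synthase NOS3 fell, and was at 332, 340.0 and 328 CPM in Mock and 242, 234 and 235 CPM in siELMO1 (-0.49 ± 0.06, adjusted p = 1.00e-06, edgeR), and TEK, the angiopoietin receptor, did not pass (107 and 105 CPM, adjusted p = 0.721) while it was lower in siNT (-1.17). Of 10 epithelial genes 4 were higher and 1 was lower (median 0.21), with keratin KRT7 at 754 ± 7.60 CPM in Mock, 1153 ± 36.0 CPM in siELMO1 and 1084 ± 15.1 CPM in siNT.

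**Figure D4:**
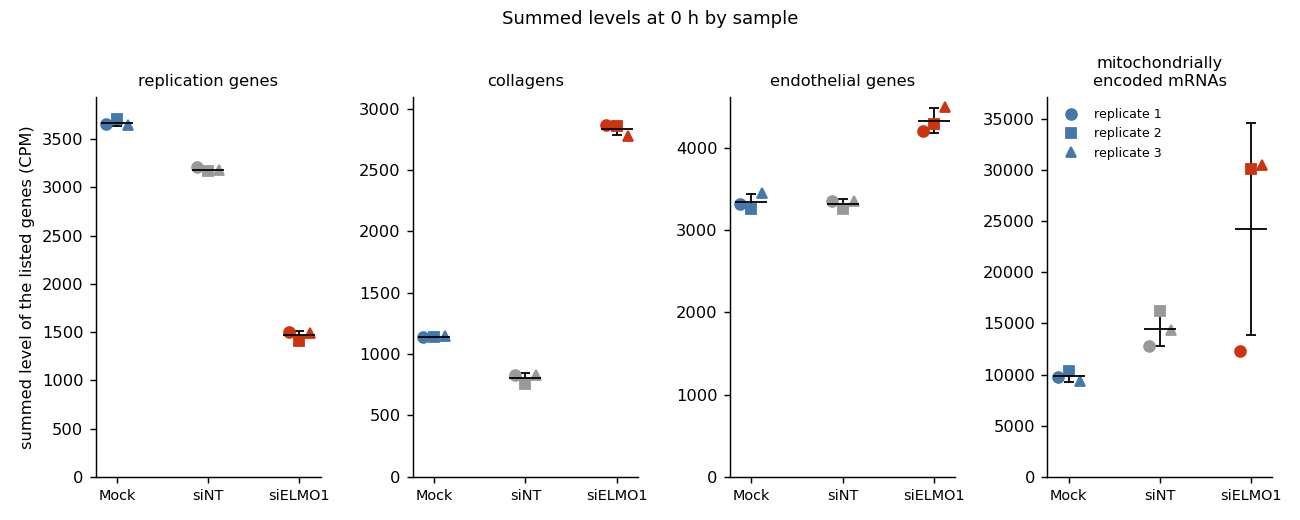
Summed level (CPM) of the listed replication genes, collagens, endothelial genes and mitochondrially encoded mRNAs in each library at 0 h, with the mean and SD of 3 libraries as bars. Replication sums are lowest and collagen and endothelial sums highest in all 3 siELMO1 libraries, whereas in the mitochondrial panel siELMO1 replicate 1 (circle) lies near the siNT libraries and the other two lie at 30064 and 30452 CPM.

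Angiogenic, vasoactive and clotting genes were more often higher than lower. Of 28 angiogenic and vasoactive factors 16 were higher and 4 lower (median 0.46). PDGFB stood at 17.1, 17.0 and 19.7 CPM in Mock and 60.9, 52.4 and 46.4 CPM in siELMO1, and the semaphorin and VEGF co-receptor NRP2 at 110.3 ± 1.49 and 254 ± 22.2 CPM. Prostacyclin synthase PTGIS, which acts downstream of PTGS2, went from 0.729 ± 0.0562 to 2.33 ± 0.409 CPM. FGF5 went the other way, from 123, 130.4 and 117 CPM to 51.3, 54.6 and 51.3 CPM (-1.24 ± 0.05, adjusted p = 6.24e-13, edgeR). Endothelin EDN1 was at 95.4 ± 3.02 CPM in Mock, 191 ± 16.7 CPM in siELMO1 and 51.9 ± 4.30 CPM in siNT.

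Coagulation and fibrinolysis genes were higher in 13 of 19 and lower in 3 (median 0.46). The protease inhibitor TFPI2 went from 4.82 ± 0.0904 to 13.2 ± 1.31 CPM and the thrombin receptors F2R and F2RL2 from 219 ± 5.92 and 37.7 ± 0.611 CPM to 439 ± 10.4 and 96.8 ± 18.4 CPM. SERPINB2, an inhibitor of plasminogen activators, fell from 122 ± 7.28 to 56.3 ± 1.66 CPM and was at 171 ± 10.3 CPM in siNT, above Mock.

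TGF-beta family and guidance genes rose in more cases than they fell. Of 32 TGF-beta and BMP genes 19 were higher and 6 lower (median 0.45). The receptors TGFBR2 and TGFBR3 were at 428 ± 6.60 and 35.9 ± 1.13 CPM in Mock and 1012 ± 28.6 and 88.6 ± 2.50 CPM in siELMO1, and siNT was near siELMO1 for TGFBR2 at 909.5 ± 23.1 CPM. The BMP antagonist NOG rose from 1.60 ± 0.426 to 4.66 ± 1.14 CPM and TGFB2 from 4.40 ± 0.174 to 12.6 ± 3.39 CPM. ID1, a target of BMP signalling, and SMAD5, a BMP signal transducer, fell from 96.6 ± 3.12 to 46.1 ± 7.61 CPM and from 134 ± 4.74 to 69.5 ± 4.08 CPM. Guidance genes were higher in 18 of 27 and lower in 3 (median 0.53), with the ephrin EFNA1 at 0.333 ± 0.0424 and 1.51 ± 0.480 CPM, the plexin PLXNA1 at 56.8 ± 2.14 and 113 ± 6.80 CPM and the endothelial receptor ROBO4 at 75.5 ± 5.14 and 149 ± 11.9 CPM. SEMA7A, a semaphorin, was at 1.48 ± 0.435 CPM in Mock, 4.86 ± 0.0564 CPM in siELMO1 and 4.69 ± 1.05 CPM in siNT, and the contrast of siELMO1 with siNT did not pass (0.05 ± 0.25, adjusted p = 0.876, edgeR).

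Before any poly(I:C), interferon-stimulated genes had no common direction. Of 42 listed 12 were higher and 11 lower (median -0.04), shares close to those of all genes, and 7 were lower without siELMO1 replicate 3 or with limma-voom. In siNT 22 were higher and 5 lower than in Mock. The largest change in the list was a rise, 1.75 on the log2 scale for BST2 in siELMO1 (adjusted p = 0.0271, edgeR). Its call was lost with limma-voom (adjusted p = 0.328) and without Mock replicate 2 or 3 or siELMO1 replicate 1 or 3. USP18, which dampens the interferon receptor, was at 21.8, 23.1 and 23.1 CPM in Mock, 10.1, 10.4 and 10.8 CPM in siELMO1 and 9.53 ± 0.856 CPM in siNT, lower in both siRNA groups. OAS3, a sensor of double-stranded RNA, fell from 52.3, 52.0 and 49.5 CPM to 25.2, 24.0 and 23.4 CPM in siELMO1 but was at 72.6 ± 2.92 CPM in siNT. OASL, a relative of the OAS enzymes without their activity, fell from 7.21 ± 0.363 to 3.43 ± 0.863 CPM, with siNT at 5.63 ± 0.404 CPM.

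Genes of double-stranded RNA sensing were higher in 6 of 16, against 27.9% of all genes, and lower in 0. The number higher was 4 with limma-voom, library totals (1 lower), no filter or mitochondrially encoded genes left out. It was also 4 on only the 6 libraries and without any 1 Mock replicate or siELMO1 replicate 2. RIGI rose from 45.7 ± 2.08 to 79.7 ± 2.64 CPM and the kinase IKBKE, which activates interferon regulatory factors, from 15.6 ± 0.716 to 30.1 ± 0.973 CPM. In siNT RIGI and IKBKE were at 50.3 ± 1.44 and 15.6 ± 0.615 CPM and were not called against Mock. TLR3, the endosomal receptor for poly(I:C), was at 16.1, 18.7 and 16.7 CPM in Mock and 19.9, 18.9 and 21.1 CPM in siELMO1 (0.22 ± 0.11, adjusted p = 0.129, edgeR) and did not pass. It was at 24.7 ± 2.51 CPM in siNT. The cytosolic sensor IFIH1 did not pass either (7.73 and 6.69 CPM, adjusted p = 0.182).

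Leukocyte adhesion molecules were mostly higher, while cytokines were higher about as often as all genes. Of 22 cytokine and chemokine genes 7 were higher, against 27.9% of all genes, and 1 was lower, 3 without siELMO1 replicate 1 and 0 without Mock replicate 1 or siELMO1 replicate 2 or 3. IL1A was at 7.84, 8.48 and 6.65 CPM in Mock and 19.6, 20.6 and 20.1 CPM in siELMO1 (1.39 ± 0.08, adjusted p = 7.78e-11, edgeR), TNFSF15 at 26.9 ± 3.28 and 63.5 ± 6.82 CPM and CSF1 at 6.88 ± 0.846 and 13.6 ± 0.440 CPM. IL1A and CSF1 were also higher in siNT (18.0 ± 0.579 and 16.9 ± 0.242 CPM) and TNFSF15 was not (21.2 ± 2.56 CPM). Leukocyte adhesion genes were higher in 9 of 11 and lower in 1. ICAM1 rose from 7.04 ± 0.766 to 19.9 ± 0.652 CPM and P-selectin SELP from 2.56 ± 0.492 to 7.97 ± 0.453 CPM, with siNT between at 14.0 ± 1.05 and 4.37 ± 0.0664 CPM. The junctional protein F11R, also called JAM-A, rose from 13.4 ± 1.39 to 36.8 ± 2.40 CPM.

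The RNA interference machinery is of interest because an siRNA was present in 1 of the groups compared. Of its 17 genes 6 were higher and 4 lower, against 27.9% and 22.4% of all genes. AGO2, the Argonaute that cuts siRNA targets, was at 123, 133 and 125 CPM in Mock and 58.6, 60.2 and 62.4 CPM in siELMO1 (-1.07 ± 0.07, adjusted p = 3.98e-10, edgeR), but at 214 ± 16.5 CPM in siNT. ERI1, an exonuclease that degrades siRNA, had the same order with 74.3 ± 3.73, 35.4 ± 1.39 and 129.8 ± 1.88 CPM. DICER1, in contrast, was higher in both siRNA groups, at 146 ± 5.30 CPM in Mock, 214 ± 11.6 CPM in siELMO1 and 233 ± 9.66 CPM in siNT.

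Death receptor and caspase genes were higher in 12 of 23 and lower in 5, against 27.9% and 22.4% of all genes. The number higher was 10 with library totals, upper-quartile scaling, other filters or only the 6 libraries. It was also 10 with mitochondrially encoded genes left out and without any 1 Mock replicate or siELMO1 replicate 1. FAS rose from 15.5 ± 0.262 to 24.0 ± 0.322 CPM and CASP8 from 54.8 ± 2.43 to 79.9 ± 5.92 CPM, and in siNT FAS was at 25.9 ± 1.76 CPM and CASP8 at 82.3 ± 1.86 CPM. CASP6, an executioner caspase, rose from 10.4 ± 0.305 to 15.5 ± 1.06 CPM.

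The mitochondrial genome gave the largest rises by amount and the largest spread between siELMO1 libraries. All 13 of 13 mitochondrially encoded mRNAs were higher (median 1.37), and in 11 of them all siELMO1 libraries lay above all Mock libraries. Their summed level was 9754, 10374 and 9355 CPM in Mock and 12265, 30064 and 30452 CPM in siELMO1, so that siELMO1 replicate 1 lay between Mock and the siNT sums of 12817, 16227 and 14389 CPM. MT-CO1, a subunit of cytochrome oxidase, was at 1838, 2286 and 1641 CPM in Mock and 2768, 5983 and 6257 CPM in siELMO1 (1.38 ± 0.22, adjusted p = 3.72e-05, edgeR), and MT-CO2 was at 1200.3, 1179 and 1205 CPM in Mock and 1866, 4060.1 and 3859 CPM in siELMO1. MT-ND4, a subunit of complex I, was at 1201, 1278 and 1089 CPM in Mock and 1337, 3997 and 3909.8 CPM in siELMO1, and MT-ND1 had the largest change at 1.74. Of the ribosomal RNAs of the organelle, MT-RNR2 was at 2738, 2876 and 2665 CPM in Mock and 5303, 10162 and 9379 CPM in siELMO1, whereas MT-RNR1 did not pass (298 and 303 CPM, adjusted p = 0.871). The tRNA gene MT-TP was at 3.46, 3.60 and 3.36 CPM in Mock and 8.63, 17.8 and 16.2 CPM in siELMO1. In MT-CO1, MT-CO2, MT-ND4, MT-RNR2 and MT-TP siELMO1 replicate 1 was the lowest of its group and still above all Mock libraries. Calls of MT-CO1, MT-CO2, MT-ND1, MT-ND4 and MT-RNR2 were kept with any of the 6 libraries left out.

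Nuclear genes of the mitochondrion did not rise with them. Of 77 nuclear-encoded respiratory chain genes 6 were higher and 15 lower, 34 lower without siELMO1 replicate 1 and 30 with library totals. Among all genes 27.9% were higher and 22.4% lower. ATP5PB, a subunit of ATP synthase, fell from 120.0 ± 0.732 to 73.1 ± 2.49 CPM. Mitochondrial ribosomal proteins were lower in 26 of 78 and higher in 11, and higher in 5 without Mock replicate 2, 7 without Mock replicate 3 and 5 with library totals. MRPL35 stood out at 57.3, 57.5 and 57.1 CPM in Mock and 12.8, 11.6 and 15.9 CPM in siELMO1 (-2.09 ± 0.09, adjusted p = 2.99e-12, edgeR), with siNT at 64.2 ± 2.41 CPM. Among TCA cycle and linked enzymes, 9 of 23 lower and 3 higher, glutamate dehydrogenase GLUD1 fell from 270.4 ± 3.65 to 112 ± 6.30 CPM and was at 343 ± 3.01 CPM in siNT.

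Cytosolic ribosomal proteins were close to level. Of 84 genes 14 were higher and 15 lower, with a median of -0.05, while in siNT 67 were higher and 5 lower than in Mock (median 0.30). The number lower was 37 without siELMO1 replicate 1, 9 and 7 without replicates 2 and 3, and 30 with library totals, which also left 8 higher. RPL39L, a paralogue of RPL39, stood apart from the family at 14.3, 14.3 and 14.3 CPM in Mock and 3.10, 3.24 and 2.90 CPM in siELMO1 (-2.22 ± 0.09, adjusted p = 9.10e-13, edgeR), with siNT at 10.9 ± 0.977 CPM. RPS16 came next, from 396 ± 12.5 to 233 ± 7.18 CPM. Reads of ribosomal protein genes can be shared with their pseudogenes.

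Chaperones and translocation factors of the endoplasmic reticulum were higher in 20 of 27 and lower in 3 (median 0.33), against 5 higher and 13 lower in siNT. HYOU1 was at 177, 179 and 178 CPM in Mock and 343, 396 and 415 CPM in siELMO1 (1.11 ± 0.08, adjusted p = 4.52e-09, edgeR), and SEC63 and DNAJB9 changed by 0.87 and 0.83. HSPA5, the main chaperone of the compartment, rose from 948 ± 4.43 to 1363 ± 20.5 CPM and HSP90B1 from 1139 ± 17.9 to 1899 ± 169 CPM, and in siNT both lay under Mock at 784 and 875 CPM. SEC61A1, the pore of the translocon, went the other way, from 343, 338 and 345 CPM in Mock to 151, 143 and 152 CPM in siELMO1 (-1.20 ± 0.06, adjusted p = 6.73e-12, edgeR), and was at 337 ± 3.62 CPM in siNT. XBP1, a transcription factor of the unfolded protein response, did not pass (56.0 and 54.8 CPM, adjusted p = 0.672).

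Lipid and sugar metabolism genes moved in both directions. Cholesterol synthesis genes were higher in 13 of 24 and lower in 5, 3 lower without siELMO1 replicate 3. The number higher was 9 with library totals, with no filter or without Mock replicate 2, and 10 without Mock replicate 1. The feedback protein INSIG1 fell from 204 ± 6.54 to 124 ± 5.94 CPM. Of 9 cholesterol efflux and LXR target genes 5 were higher and 1 was lower (median 0.70), with the exporters ABCA1 and ABCG1 at 22.5 ± 1.86 and 1.46 ± 0.329 CPM in Mock and 50.8 ± 1.30 and 3.46 ± 0.135 CPM in siELMO1. In siNT, ABCA1 was under Mock at 16.1 ± 0.305 CPM. Glycolysis genes were lower in 11 of 23 and higher in 5 (median -0.13), while the glucose importer SLC2A1 rose from 50.8 ± 0.189 to 100.4 ± 7.96 CPM.

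In the pathway of ELMO1 itself ELMO2, ELMO3, DOCK1 and RAC1 differed by less than 2 fold. Of 21 ELMO, DOCK and RAC genes tested, ELMO1 included, 9 were higher and 6 lower, and 2 of the lower genes, ELMO1 being 1 of the 2, fell by more than 2 fold. ELMO2, the paralogue, was at 57.7, 55.9 and 57.1 CPM in Mock and 76.7, 75.7 and 79.2 CPM in siELMO1 (0.44 ± 0.05, adjusted p = 7.03e-07, edgeR) and at 69.7 ± 3.19 CPM in siNT, and ELMO3 did not pass (1.26 and 1.14 CPM, adjusted p = 0.689). DOCK1, the exchange factor that ELMO proteins bind, rose from 107 ± 3.26 to 142 ± 9.57 CPM and was lower in siNT at 58.4 ± 4.96 CPM. RAC1 was at 308, 299 and 287 CPM in Mock and 260.1, 307 and 277 CPM in siELMO1 (-0.09 ± 0.05, adjusted p = 0.187, edgeR), with overlapping libraries, and at 181 ± 2.49 CPM in siNT. It passed as lower without Mock replicate 3 (adjusted p = 0.0481), without siELMO1 replicate 2 (adjusted p = 0.0156) and with library totals (adjusted p = 0.0063, all edgeR). DOCK6 rose from 57.8 ± 2.56 to 114 ± 3.54 CPM and RAC2 from 35.9 ± 1.31 to 54.0 ± 4.67 CPM. In the wider list of actin regulators 15 of 30 genes were higher and 4 lower, LIMK1 rose from 65.5 ± 2.51 to 119 ± 4.29 CPM, and the formin DIAPH3 fell from 56.1 ± 1.04 to 16.9 ± 0.461 CPM.

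Of the 682 genes lower by more than 2 fold in siELMO1 than in Mock, 261 were called lower and 74 higher in siNT by adjusted p. Of the 499 higher by more than 2 fold, 165 were called higher and 79 lower in siNT. The others of both groups were not called in siNT. Among all genes tested, 24.0% were lower and 27.6% higher in siNT. Because both contrasts use the same 3 Mock libraries, noise in Mock moves them the same way, so the counts are no separate test. As examples, 4 genes that fell in siELMO1 and were not called in siNT are given here. SHMT2, MRPL35 and SEC61A1 changed by -2.17, -2.09 and -1.20 in siELMO1 and by -0.02, 0.16 and -0.02 in siNT. The Notch transcription factor RBPJ, which fell by less than 2 fold and is not one of the 682, was at -0.96 and -0.11. The 4 genes were set side by side after their values had been seen.

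Set against siNT instead of Mock, a contrast that shares the siELMO1 libraries with the one above, the named genes gave the following values. COL5A1 was higher by 3.66, KDR by 1.63, PTGS2 by 3.62 and PPP1R16B by 3.19 on the log2 scale. PKMYT1 stood at -2.72, SLC7A11 at -3.01, BMAL2 at -2.65, E2F2 at -2.85 and RRM2 at -1.95, and all of these passed the test. ELMO1 was at -3.11 ± 0.28 (adjusted p = 2.74e-08, edgeR). BIRC5 was at -1.11, where its value against Mock was -2.31. USP18, FAS and CASP8 did not pass against siNT (0.13, -0.11 and -0.04, adjusted p = 0.207, 0.198 and 0.571, edgeR), and TGFBR2 was at 0.15 (adjusted p = 0.0193).

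The same contrast was also available after 24 h of poly(I:C) at 1 μg/ml, in 6 separate libraries, where 43.6% of genes differed between siELMO1 and Mock. The difference between the contrasts at 24 h and 0 h passed as an interaction for 28.3% of all genes. The log2 fold change of ELMO1 was -3.13 at 24 h and -3.15 at 0 h. COL5A1, at 3.23, and KDR, at 2.22, showed no interaction that passed (adjusted p = 0.501 and 0.820, edgeR). The 11 genes with the largest fall given here all had values nearer to 0 at 24 h, from -1.92 for SLC7A11 to -0.60 for TCF19, and each of the 11 interactions passed. They were chosen for their size in the same 0 h libraries, which by itself favours a smaller value at 24 h. PTGS2 turned over, from 2.03 at 0 h to -0.95 at 24 h (interaction -2.98 ± 0.18, adjusted p = 2.78e-09, edgeR).

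**Figure D5:**
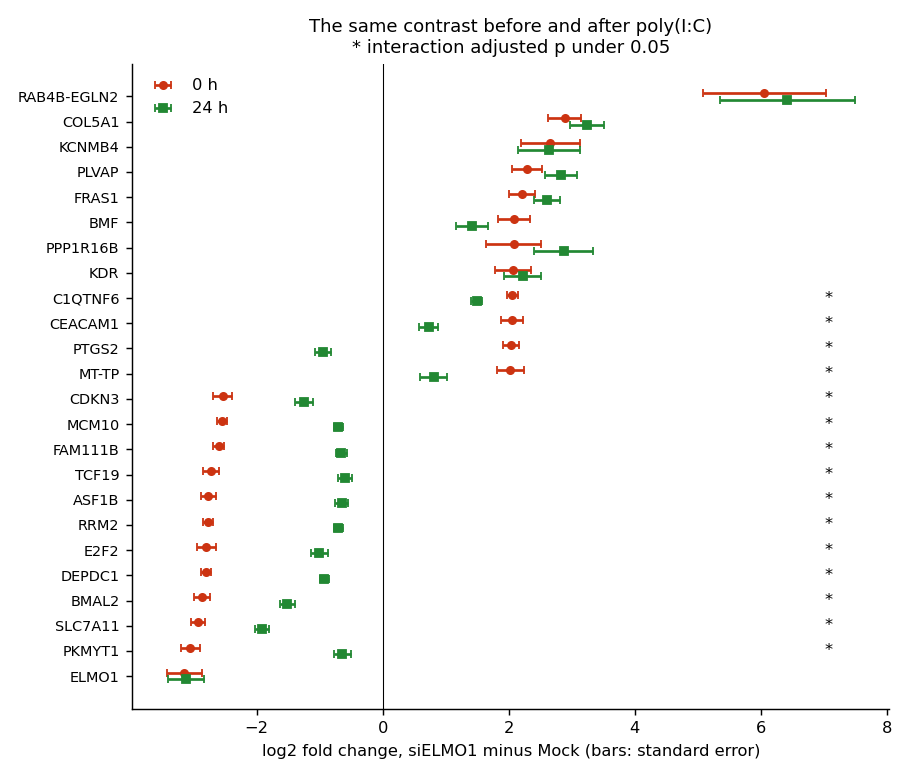
Log2 fold change of siELMO1 against Mock with its standard error before poly(I:C) (red circles) and 24 h after it (green squares) for ELMO1 and the 23 genes named by fold; a star marks an interaction with adjusted p under 0.05. All 11 genes of the lower group and 4 of the higher group carry a star, and for each of these 15 the 24 h value is smaller in size than the 0 h value. The 23 genes were chosen for their size at 0 h.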

How the data were processed

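RNA of the 18 samples was made into poly(A)-selected, stranded libraries and sequenced as paired reads. Per the study's methods, the authors aligned reads with STAR to GRCh38, assembled them with StringTie on Gencode v44 and deposited estimated counts per gene and per transcript, which StringTie's prepDE derives from coverage. These are whole numbers and not normalized, and the sources used here do not state that strand was used. Replicates were described as biological and were not pooled. The 18 columns were matched to samples by name, with 0 columns left unmapped. From the deposited counts, genes with at least 100 counts in total and at least 1 CPM in a library of the series were kept (15167 of 62754, with 24784 at 0 throughout) and scaled by TMM. One edgeR (4.0.16, R 4.3.3) quasi-likelihood model was fitted to all 6 groups, and contrasts were taken from it with Benjamini-Hochberg adjustment over all genes. A gene was called with adjusted p under 0.05, and by fold where its change also exceeded 2 fold. The biological coefficient of variation was 12.2%.

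The 6 libraries held 40374756 to 73850946 counts, so that levels under 1 CPM rest on few counts. The text names ELMO1, in each direction the 12 genes with the largest fold at a mean of 5 CPM or more and no overlap of libraries, the 5 with the largest difference in CPM, up to 5 members per gene list with the largest changes, and members that did not pass where their role called for it. ATF4, CDH5, DOCK1, E2F7, EDN1, ELMO2, HSP90B1, HSPA5, ID1, KIF20A, NOS3, PLK1 and SMAD5 were added after their values were seen. Gene lists and members were chosen with earlier results of these data known. Alternatives were DESeq2 (1.42.0), limma-voom (limma 3.58.1), other scalings and filters, a fit to the 6 libraries, the replicate number as a block, a test against a fold of 2 and leaving out each library. The model was tested on simulated counts. Promoter windows came from RefSeq tables read in Python 3.11.15. The sequences of the siRNAs were not used here, and 1 of the 12 genes with the largest fall and a few list members are not reported here.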

Additional observations from a re-analysis of the deposited data

Results flagged for a closer look

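For ELMO1 and the 23 genes named by fold, the contrast of siELMO1 with Mock after 24 h of poly(I:C) was compared with the contrast at 0 h by the interaction term of the edgeR model. It passed for 15 of these 24 genes, and in all 15 the 24 h fold change was the smaller in size. The values below are the 24 h minus the 0 h log2 fold change.

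The 11 genes that fell most at 0 h all had a positive difference. It was 2.41 for PKMYT1, 1.01 for SLC7A11, 1.35 for BMAL2, 1.88 for DEPDC1, 1.79 for E2F2, 2.07 for RRM2, 2.12 for ASF1B, 2.12 for TCF19, 1.95 for FAM111B, 1.84 for MCM10 and 1.29 for CDKN3. Of the genes that rose at 0 h, 4 had a negative difference. It was -2.98 for PTGS2, which changed sign, -1.33 for CEACAM1, -1.22 for the mitochondrial tRNA gene MT-TP and -0.56 for C1QTNF6. These genes were chosen for their size at 0 h. ELMO1 itself did not pass this test (adjusted p = 0.980, edgeR).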

How the results depend on the processing

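The counts of 499 higher and 682 lower genes stayed within 1.5 times of these values under every alternative run but one. Tested directly against a fold of 2, 105 genes were higher and 366 lower, 471 in all. With 1 library left out, 421 to 575 genes were higher and 646 to 786 lower, 6678 to 7981 passed by adjusted p alone, and the log2 fold change of ELMO1 ranged from -3.32 to -3.05. DESeq2 called 509 higher and 712 lower and limma-voom 485 and 681. Without siELMO1 replicate 1, 461 of the 499 higher and 654 of the 682 lower genes were kept. With the replicate block, 506 were higher, 689 lower and 7797 passed by adjusted p alone, and ELMO1 was at -3.16. Deviations of same-numbered Mock and siELMO1 libraries correlated at 0.07, -0.10 and -0.01 across 9990 genes, so the numbers were not taken to pair the libraries.

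No called direction reversed. Among single genes, 22 lost their call under at least 1 alternative, in 99 comparisons, RAC1 gained one in 3, and 4653 comparisons kept direction and side of the threshold. Signs turned in 4 genes that had not passed. With library totals, without a filter and on only the 6 libraries E2F3 was at -0.054, -0.013 and -0.017, MT-RNR1 at -0.057, -0.0153 and -0.0157 and NFE2L2 at -0.056, -0.0137 and -0.015. With mitochondrially encoded genes left out, E2F3 was at -0.0048 and NFE2L2 at -0.0040. With a library left out, E2F3 ranged from -0.041 to 0.058, MT-RNR1 from -0.071 to 0.107, NFE2L2 from -0.028 to 0.095 and XBP1 from -0.084 to 0.0067. Counts of 3 or fewer members within a list moved by 1 to 3 members. Library totals moved the median of all genes by -0.08. The lowest depth, 40374756 counts in siELMO1 replicate 2, left 7 counts on the main ELMO1 transcript.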
